A study of Mus musculus with 6 samples.

Results

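The mitochondrially encoded transcripts are the RNAs made inside the mitochondrion from its own circular genome. They were taken as every row whose gene identifier mapped to a mouse symbol starting with mt-, which gave 15 of the 29275 genes measured. These are 13 mRNAs and 2 rRNAs. In each group RNA was sequenced from 3 cultures of primary mouse Sertoli cells, the somatic cells that nurse germ cells in the testis tubule. One group came from mice labelled WT (wild type) and untreated. The other came from mice labelled Arhgef15 cKO, for a conditional knockout of Arhgef15, a guanine nucleotide exchange factor gene. Cells of both groups were kept in DMEM/F12 with serum, antibiotics and EGF, and total RNA was taken with TRIzol. The sources used here do not give the Cre line, the deleted exons or the age of the mice. The sample titles call the numbered replicates biological but do not say that each is a separate animal. The p-values then measure only the spread between these libraries, which may differ from that between animals.

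Mitochondrial genes are transcribed from both strands of the circle as long precursors that run through many genes. The tRNAs that lie between most genes are cut out, and this frees the mRNAs and rRNAs. The mRNAs encode core subunits of complexes I, III and IV of the respiratory chain and of complex V, the ATP synthase, while the rRNAs build the mitochondrial ribosome. All other proteins of these machines come from nuclear genes. Sertoli cells are known for making lactate by glycolysis and passing it to germ cells.

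Nearly the whole sequence of 5 members is also annotated in nuclear DNA, and so is a large part of mt-Nd4 and mt-Co1, which bears on the levels of these genes. In GENCODE M21 (build GRCm38), 7 unprocessed pseudogenes at chr1:24611535-24616197 copy mitochondrial genes from the end of mt-Co1 to the start of mt-Nd4. Of these 7, 5 are identical to the mitochondrial gene over their whole length. Chromosome 2 holds annotated copies of mt-Nd2, mt-Co1 and mt-Co2 that differ at 17 to 37 bases, against 0 to 6 for those on chromosome 1. The following stretch of 80 bases shows the difference between the copies. It covers bases 445 to 524 of mt-Co2 (chrM:7013-7696), the same bases of Gm28661 (chr1:24614885-24615565) and bases 433 to 512 of Gm13341 (chr2:22587291-22587962). Capitals mark bases that differ from mt-Co2, and this window was taken because it holds the most such bases in Gm13341.
mt-Co2: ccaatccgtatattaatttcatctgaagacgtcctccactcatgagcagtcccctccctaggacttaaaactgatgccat
Gm28661: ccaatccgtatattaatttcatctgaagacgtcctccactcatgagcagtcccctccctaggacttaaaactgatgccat
Gm13341: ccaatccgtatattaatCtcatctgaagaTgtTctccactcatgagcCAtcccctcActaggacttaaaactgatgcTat
A fragment from this stretch of mt-Co2 matches Gm28661 at every base, and differs from Gm13341 at up to 7. Over the full alignment Gm28661 had 0 differences to mt-Co2 in 681 bases, and Gm13341 had 28 in 684.

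The share of each gene that is repeated elsewhere was measured with windows of 50 bases, looked up as exact matches on either strand in 141730 other annotated transcripts. It was 100% for mt-Co2, 99.9% for mt-Co3, 99.5% for mt-Atp6, 98.8% for mt-Nd4l and 98.0% for mt-Nd3. For mt-Nd4 it was 62.2% and for mt-Co1 51.1%. In mt-Rnr1, mt-Nd1, mt-Nd6, mt-Cytb and mt-Atp8 no window was found, and in mt-Rnr2, mt-Nd2 and mt-Nd5 it was at most 8.19%. Levels are given as FPKM, fragments per kilobase of gene, scaled to the depth of the library, which allows genes to be compared per length. The 5 genes with over 95% of windows repeated lay between 2.98 and 83.1 FPKM in every library. The 7 genes under 10%, mt-Atp8 left aside, lay between 145.5 and 4312 FPKM, so these ranges did not overlap. mt-Atp8, with no window repeated, lay at 0.253 to 2.17 FPKM, below the repeated genes. With it included the ranges overlap. The sources used here do not say how fragments with several matches were assigned, and the part of this in the levels was not tested.

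**Figure D1:**
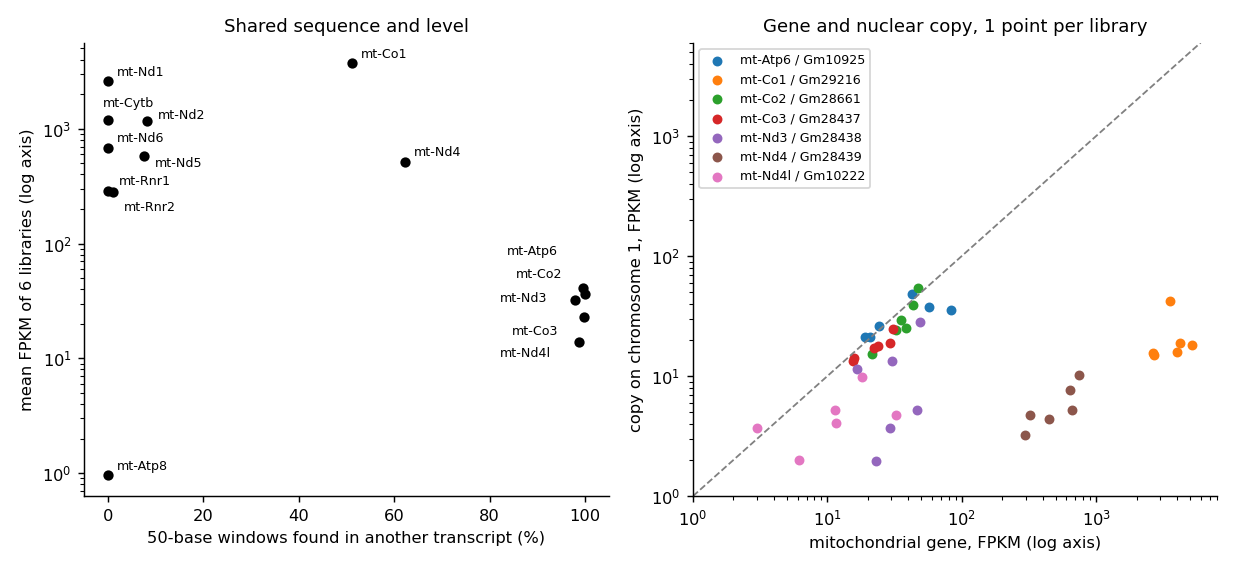
Left: for each of the 15 genes, the share of its 50-base windows also found in another annotated transcript (x, %) against its mean FPKM over 6 libraries (y, log axis). Right: FPKM of 7 mitochondrial genes (x) and of their copies on chromosome 1 (y), both on log axes, 1 point per library, with equality as a dashed line. The 5 genes with over 95% of windows repeated have means of 13.8 to 41.1 FPKM, and the points of mt-Co2, mt-Atp6 and mt-Co3 lie near the line.

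The nuclear copies of mt-Atp6, mt-Co2 and mt-Co3 were listed at levels near those of the genes they copy. Gm10925, the copy of mt-Atp6, had a mean of 31.5 FPKM, and its ratio to mt-Atp6 ranged from 0.431 to 1.13 over the libraries with a median of 1.04. Gm28661 had a mean of 31.1 FPKM and 0.658 to 1.14 times the level of mt-Co2. Gm28437, the copy of mt-Co3, had a mean of 17.7 FPKM and 0.642 to 0.885 times the level of mt-Co3. The ratio was more variable for Gm28438 to mt-Nd3, at 0.0851 to 0.697, and for Gm10222 to mt-Nd4l, at 0.145 to 1.23. Where the mitochondrial gene also has sequence of its own, the copy was far lower. Gm28439, identical to 876 bases of mt-Nd4, had 0.00784 to 0.0147 times the level of mt-Nd4. Levels of genes and copies that share sequence are therefore uncertain.

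mt-Atp8 is a separate case, since none of its 50-base windows was found in another annotated transcript. It encodes a small subunit of the ATP synthase and ends inside mt-Atp6. Its 43 bases shared with mt-Atp6 are too short for such a window. All 204 bases of the gene (chrM:7766-7969) are printed because almost no fragment was assigned to them, with the 43 bases shared with mt-Atp6 in capitals.
mt-Atp8: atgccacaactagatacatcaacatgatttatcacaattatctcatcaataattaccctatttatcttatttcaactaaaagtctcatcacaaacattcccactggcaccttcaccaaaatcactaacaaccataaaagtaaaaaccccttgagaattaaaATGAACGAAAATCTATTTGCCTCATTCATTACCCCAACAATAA
In WT replicates 1, 2 and 3 it was listed at 0.261, 0.503 and 2.17 FPKM. The cKO replicates, in the same order, were at 0.253, 0.584 and 1.95 FPKM. These values stood for 1, 2 and 9 fragments and for 1, 2 and 8 fragments. The exact Poisson 95% intervals for 1 and for 9 fragments ran from 0.0253 to 5.57 and from 4.12 to 17.1 and cover counting error only. Both groups thus held libraries at hardly any fragments and 1 library with several. Between mt-Co2 and mt-Atp6 the mitochondrial genome has 230 bases, and between Gm28661 and Gm10925 on chromosome 1 there are 233 bases with no annotated copy. Whether these hold a copy of mt-Atp8 was not tested.

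The libraries did not fall apart by genotype alone. Arhgef15 was listed at 0.0237 to 0.349 FPKM in WT and at 0.322 to 0.501 FPKM in cKO libraries, so the libraries labelled cKO did not have less of it, and directions rest on the labels. Depth was 16790000 to 20320000 fragments per library. Across genes, WT replicate 3 correlated at 0.860 and 0.898 with the other WT libraries and at 0.921 to 0.947 with the cKO libraries. Results are therefore also given without it. This choice was made from the same values, and leaving out a WT library near the cKO libraries favours larger differences between the genotypes. The p-values without it are descriptive only. Sertoli markers were present in every library, for instance Sox9 at 5.10 to 35.6 FPKM. In bulk RNA, fewer cells of a type and less RNA per cell cannot be told apart.

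Complex I takes electrons from NADH, and 7 of its core subunits are mitochondrially encoded. mt-Nd1 was the most abundant of them, with 1732, 2013 and 2219 FPKM in WT libraries and 2202, 3034 and 4312 FPKM in cKO libraries, here and throughout in the order of replicates 1, 2 and 3. The lowest cKO library, replicate 1, lay just under WT replicate 3, and the other cKO libraries lay above all WT ones. mt-Nd2 was at 854.2, 1325 and 1211 FPKM in WT and at 946.8, 918.5 and 1805 FPKM in cKO libraries. mt-Nd4 was at 659.6, 638.1 and 324.4 FPKM and at 296.8, 443.3 and 743.7 FPKM, and mt-Nd5 at 547.1, 889.4 and 452.7 FPKM and at 356.5, 448.5 and 790.9 FPKM. In these 3 genes the groups overlapped widely and cKO replicate 3 was the highest cKO library.

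mt-Nd6 is the only member encoded on the strand opposite to the others. It was listed at 1001, 1306 and 438.5 FPKM in WT and at 268.1, 304.5 and 792.0 FPKM in cKO libraries. Wild-type replicates 1 and 2 were the highest, and WT replicate 3 lay below cKO replicate 3. Its last bases pair with those of mt-Nd5, as the last 60 bases of each gene show, with the 14 bases that pair in capitals.
mt-Nd5: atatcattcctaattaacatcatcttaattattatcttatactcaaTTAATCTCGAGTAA
mt-Nd6: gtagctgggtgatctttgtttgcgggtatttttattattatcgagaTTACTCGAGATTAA
The strand setting of the counting is unknown from the sources used here, so fragments of mt-Nd6 and fragments of precursor RNA of the other strand cannot be told apart.

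The remaining complex I members belong to the repeated stretch and were low. mt-Nd3 was at 49.2, 46.1 and 29.4 FPKM in WT and at 22.8, 16.6 and 30.2 FPKM in cKO libraries. Only WT replicate 3 and cKO replicate 3 kept these groups from separating. mt-Nd4l, whose last 7 bases are also the first of mt-Nd4, was at 6.11, 32.5 and 2.98 FPKM and at 11.6, 11.4 and 18.1 FPKM. It had the widest range of the members that passed the filter on low values, 10.9 times between the highest and the lowest library, and both of these were WT.

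Complex III passes electrons to cytochrome c, and mt-Cytb encodes its cytochrome b. It was at 1558, 1528 and 523.1 FPKM in WT and at 615.1, 1198 and 1736 FPKM in cKO libraries. The highest library was cKO replicate 3 and the lowest WT replicate 3.

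Complex IV, cytochrome c oxidase, hands the electrons to oxygen. Its catalytic subunit mt-Co1 was the most abundant member, at 2644, 4222 and 3547 FPKM in WT and at 2712, 4011 and 5157 FPKM in cKO libraries. In 4 of the 6 libraries it ranked 1 among all 29275 genes, and it ranked 6 and 5 in WT replicate 1 and cKO replicate 1. mt-Co2, which carries the copper site that accepts electrons from cytochrome c, was at 47.6, 35.1 and 32.5 FPKM and at 21.5, 43.4 and 38.4 FPKM. mt-Co3 was at 22.4, 30.5 and 29.2 FPKM in WT and at 15.9, 15.4 and 23.7 FPKM in cKO libraries, where WT replicate 1 lay under cKO replicate 3. Of complex V, mt-Atp6, which forms part of the proton channel, was at 19.0, 42.3 and 83.1 FPKM and at 24.2, 20.9 and 57.3 FPKM.

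mt-Rnr1, the small subunit rRNA, was at 174.5, 149.4 and 573.4 FPKM in WT and at 397.4, 194.2 and 237.7 FPKM in cKO libraries. mt-Rnr2, the large subunit rRNA, was at 145.5, 240.0 and 596.0 FPKM and at 312.7, 152.1 and 254.4 FPKM. Wild-type replicate 3 was the highest library for both. Whether poly(A) selection or rRNA removal was used is unknown from the sources used here, so these values do not measure the rRNA content of the cells.

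**Figure D2:**
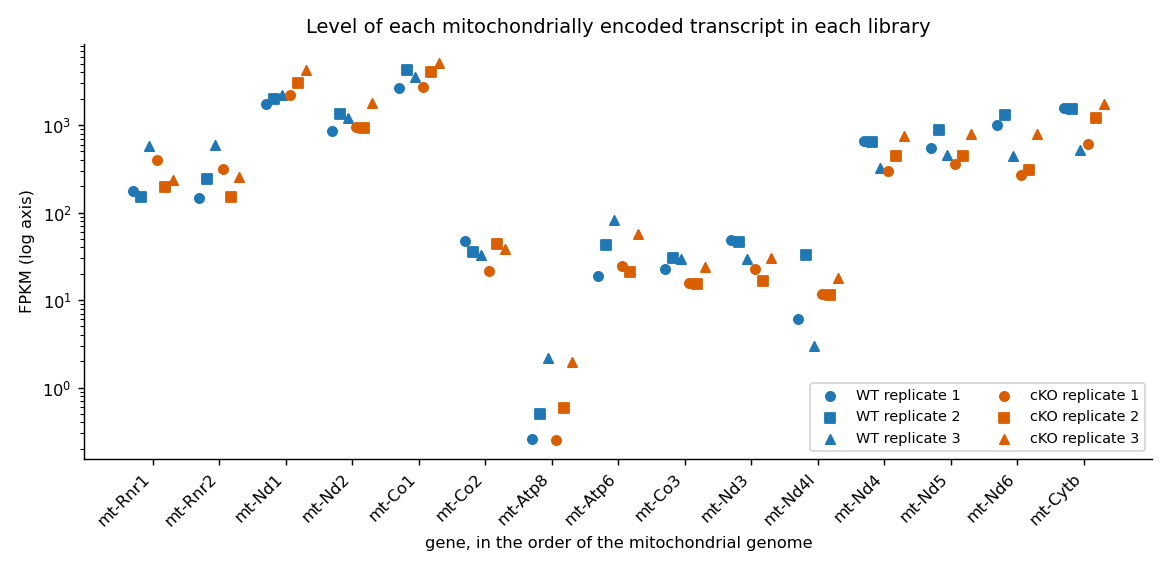
FPKM (y, log axis) of the 15 mitochondrially encoded transcripts in genome order (x), 1 point per library, blue for WT and orange for cKO, with the symbol giving the replicate number. The genes from mt-Co2 to mt-Nd4l lie at 0.253 to 83.1 FPKM, and all other members at 145.5 FPKM or more.

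Summed, the members took 2.73%, 4.07% and 3.43% of the FPKM of WT replicates 1, 2 and 3 and 2.68%, 3.61% and 5.49% of that of cKO replicates 1, 2 and 3. The means were 3.41% ± 0.670 in WT and 3.93% ± 1.43 in cKO libraries (SD, n = 3 each), and the difference of 0.518 percentage points was smaller than the spread of the cKO libraries. It was -0.264 without cKO replicate 3, 0.178 without WT replicate 1, 0.847 without WT replicate 2 and 1.14 without cKO replicate 1. Counted as fragments, the members held 196010 to 393063 fragments per library. Of the fragments in genes with a known length, that was 1.14%, 1.54% and 1.26% in WT and 1.01%, 1.35% and 1.96% in cKO libraries. The Wilson 95% interval, which covers counting error only, was 1.01% to 1.02% in the lowest library, cKO replicate 1, and 1.96% to 1.97% in the highest, cKO replicate 3. cKO replicate 3 was the highest library for 5 of the 15 members and the lowest for 0. WT replicates 1, 2 and 3 were the highest for 2, 4 and 4, and cKO replicates 1 and 2 for 0. Wild-type replicate 1 and cKO replicate 1 were each the lowest for 5.

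By complex, the 7 genes of complex I took 53.1%, 51.6% and 52.6% of the summed FPKM of the 13 mRNAs in WT and 54.8%, 49.5% and 54.8% in cKO libraries. Complex IV took 29.7%, 35.4% and 40.6% and 36.7%, 38.9% and 33.7%, nearly all of it mt-Co1. Complex III, which is mt-Cytb alone, took 17.0%, 12.6% and 5.88% in WT and 8.21%, 11.4% and 11.2% in cKO libraries. Complex V took 0.205% to 0.959%. All 4 shares overlapped between the genotypes. These shares describe the deposited values, in which mt-Co2, mt-Co3 and the complex V genes are low beside mt-Co1, and not the balance of the mRNAs in the cell. Adding the FPKM of the nuclear copies to the genes they copy left complex V at 0.402% to 1.34%.

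**Figure D3:**
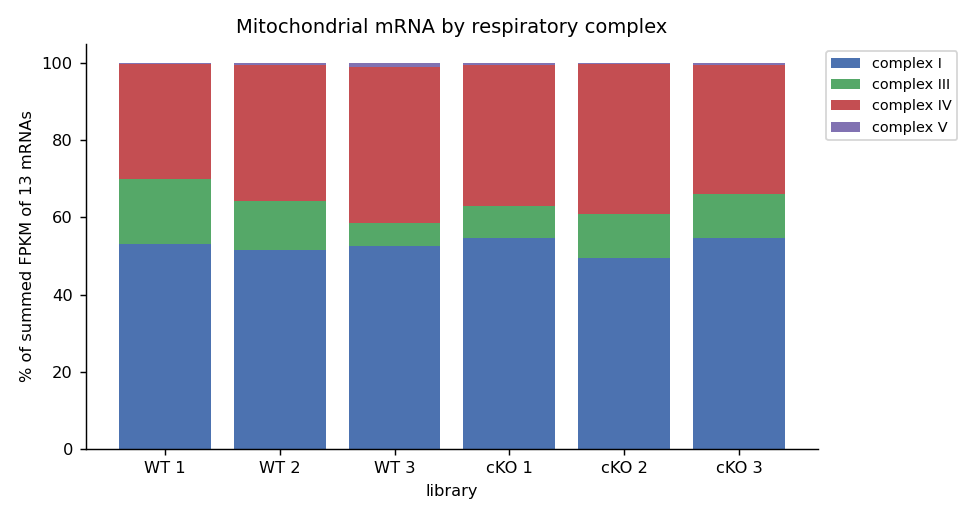
Stacked bars of the share (y, %) of the summed FPKM of the 13 mitochondrial mRNAs taken by the genes of complexes I, III, IV and V in each library (x). Complex I stays between 49.5% and 54.8%, complex III ranges from 5.88% to 17.0%, and complex V is at most 0.959%.

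Within the 13 mRNAs, mt-Nd1 took a larger share in every cKO library. It made up 19.0%, 16.6% and 24.9% of the summed FPKM in WT and 29.4%, 29.0% and 27.8% in cKO libraries. The shares of mt-Nd3 and mt-Co3 were lower in every cKO library, at 0.159% to 0.305% against 0.331% to 0.538% for mt-Nd3 and at 0.147% to 0.212% against 0.245% to 0.329% for mt-Co3. For the other 10 mRNAs the shares overlapped. That made 3 of 13 shares without overlap, while the FPKM of 11.3% of all genes tested did not overlap, a rate on another measure. These shares were looked at after the values had been seen, they depend on one another, and no test was made of them.

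No member differed between the genotypes past the threshold. Of 14 members that passed the filter of at least 1 FPKM in at least 3 libraries, 0 had an adjusted p under 0.05 (limma on log2(FPKM + 1), Benjamini-Hochberg over 12284 genes), where 0.0163% of all genes tested did. At an unadjusted p under 0.05 there were 2 of 14, both lower in cKO libraries, against 6.81% of all genes, of which 3.87% were higher and 2.94% lower. The FPKM of the genotypes overlapped for every one of the 14 members, so 0 separated, against 11.3% of all genes, 6.28% higher and 5.01% lower in cKO libraries. The mean on the log2(FPKM + 1) scale was higher in cKO libraries for 6 members and lower for 8, and of these 6 mt-Rnr1, mt-Nd4l and mt-Cytb had a lower mean in FPKM; mt-Nd2 and mt-Cytb turned to lower with median-ratio scaling, mt-Rnr1 to lower with array weights and mt-Nd4 to higher with quantile normalization. The median log2 difference of the members was -0.18, and it was 0.08 over all genes tested.

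The members at an unadjusted p under 0.05 were both of the repeated stretch. mt-Nd3 had 41.6 ± 10.6 FPKM in WT and 23.2 ± 6.79 FPKM in cKO libraries, a log2 difference of -0.82 (SE 0.29, limma adjusted p = 0.652). mt-Co3 had 27.4 ± 4.39 and 18.3 ± 4.64 FPKM, a difference of -0.57 with an SE of 0.24 (adjusted p = 0.727). mt-Nd6 had the largest difference in size, -1.05 with an SE of 0.53, from 915.0 ± 440.0 FPKM in WT and 454.9 ± 292.5 FPKM in cKO libraries (adjusted p = 0.755). On the other side, mt-Nd1 had 1988 ± 244.1 and 3183 ± 1063 FPKM, a difference of 0.63 with an SE of 0.31 (adjusted p = 0.755). mt-Co1 and mt-Cytb, the other abundant mRNAs of separate complexes, had differences of 0.17 with an SE of 0.33 and 0.01 with an SE of 0.53. The value of mt-Cytb turned to -0.06 with median-ratio scaling. For mt-Nd4l the fitted difference was 0.55 with an SE of 0.71, while its group means were 13.8 ± 16.2 and 13.7 ± 3.79 FPKM. mt-Atp8 fell below the filter and, in the fit over all 29275 genes, differed by -0.01 with an SE of 0.48 (adjusted p = 0.999).

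Without WT replicate 3, 0 of the 14 members passed the threshold, where 3.89% of all genes tested did, 2.47% higher and 1.42% lower. At an unadjusted p under 0.05 there were 2 of 14, mt-Nd3 and mt-Nd6, both lower, beside 22.3% of all genes, 14.2% higher and 8.05% lower. mt-Nd3 then had a log2 difference of -1.05 (SE 0.26, limma adjusted p = 0.0793). For mt-Nd6 it was -1.51 with an SE of 0.46 (adjusted p = 0.122). As the library left out was chosen from these same data, these p-values are descriptive only. The difference of mt-Cytb turned to -0.51, that of mt-Rnr2 to 0.30, that of mt-Atp6 to 0.11 and that of mt-Nd4l to -0.10, and the difference of mt-Rnr1 was 0.70 in place of 0.10.

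**Figure D4:**
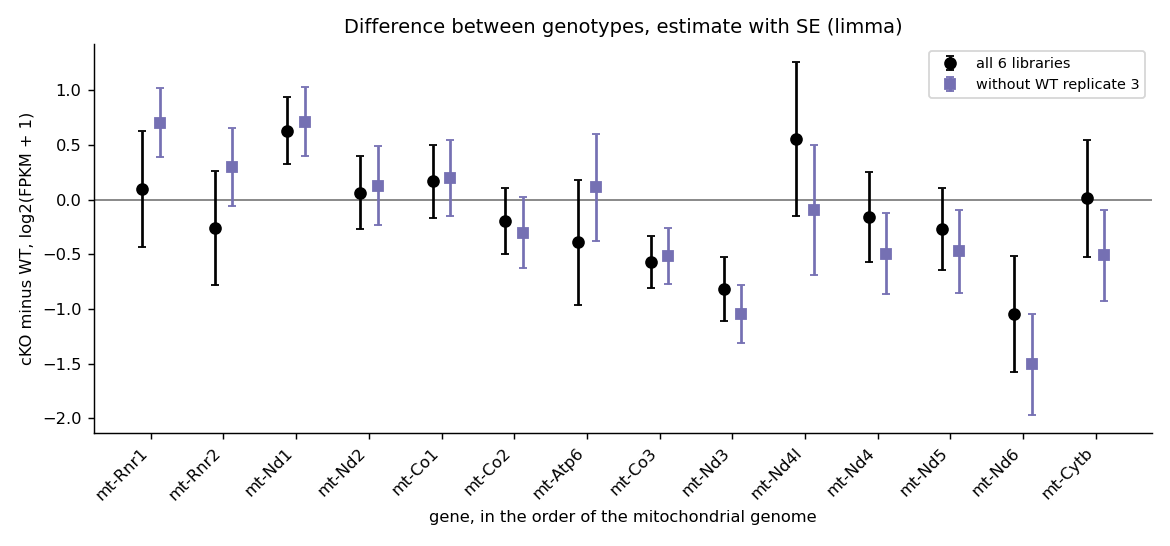
Difference between genotypes (y, cKO minus WT on the log2(FPKM + 1) scale, with SE) for the 14 tested members in genome order (x), from all 6 libraries (black) and without WT replicate 3 (purple). mt-Nd6 and mt-Nd3 lie lowest at -1.05 and -0.82 with all libraries, mt-Nd1 highest at 0.63, and no value passed the threshold.

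Ratios of members within a library do not depend on scaling between libraries. mt-Nd6 and mt-Nd5 are neighbours on opposite strands, and the ratio of their FPKM was 1.83, 1.47 and 0.969 in WT and 0.752, 0.679 and 1.00 in cKO libraries. Wild-type replicate 3 lay between cKO replicates 1 and 3, so the groups overlapped. The mean log2 ratio differed by -0.78 (exact two-sided permutation test, p = 0.2, with 0.1 the smallest p that 3 against 3 allows, and p = 0.3 after Benjamini-Hochberg adjustment over 2 ratios). The ratio of mt-Rnr2 to mt-Rnr1 was 0.834, 1.61 and 1.04 in WT and 0.787, 0.783 and 1.07 in cKO libraries, a log2 difference of -0.36 (exact permutation p = 0.3, adjusted p = 0.3). Without WT replicate 2 this difference was -0.097, and without WT replicate 1 it was -0.57.

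The balance between mt-Cytb and mt-Nd1, the first mRNA in genome order, differed among libraries. The ratio of mt-Cytb, the last member, to mt-Nd1 was 0.899 and 0.759 in WT replicates 1 and 2. It was 0.236 in WT replicate 3 and 0.279, 0.395 and 0.403 in the cKO replicates. Wild-type replicate 3 was therefore the lowest library, and both other WT libraries were the highest. This ratio was chosen after its values were seen and was not tested. The summed FPKM of several marker lists followed the same division of libraries, and that of others did not. Macrophage and leukocyte markers, summed over 15 genes, had 1417, 1141 and 313.9 FPKM in WT and 342.4, 205.2 and 272.2 FPKM in cKO libraries. The 7 markers of peritubular myoid cells were at 3102 and 2439 FPKM in WT replicates 1 and 2 and at 517.3 to 1298 FPKM in the other libraries. Endothelial markers, 12 genes, were lowest there, at 37.8 and 32.4 FPKM against 63.6 to 110.5 FPKM. Sertoli markers, 18 genes, had 330.3, 297.6 and 742.5 FPKM in WT and 736.8, 552.0 and 838.2 FPKM in cKO libraries. As mean log2(FPKM + 1), the myoid markers had 5.77, 5.48 and 4.52 in WT and 4.67, 4.08 and 5.74 in cKO libraries. This did not follow the division, nor did the next lists in summed FPKM. Leydig markers, 8 genes, had 439.1, 223.4 and 299.2 FPKM in WT and 309.4, 259.0 and 176.0 FPKM in cKO libraries. Fibroblast and stromal markers, 10 genes, had 949.4, 1340 and 651.9 FPKM and 772.3, 720.5 and 1133 FPKM. None of these marker genes was at 0 in all libraries. The part of these lists in the ratio was not tested.

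The ratio of rRNA to mRNA, from summed FPKM, set other libraries apart. It was 0.131 in WT replicate 3 and 0.0947 in cKO replicate 1, and 0.0317 to 0.0350 in the remaining 4 libraries. The group means were 0.0662 ± 0.0565 and 0.0532 ± 0.0360 (SD, n = 3 each), and without WT replicate 3 the difference turned from -0.0130 to 0.0196. Spermatid markers, 14 genes, were also highest in these libraries, at 270.1 FPKM in WT replicate 3 and 441.2 FPKM in cKO replicate 1. WT replicate 1 followed at 212.4 FPKM, though its ratio was 0.0350, and the others were at 22.4 to 86.9 FPKM. Endothelial markers, 12 genes, were highest in the same libraries as well, at 68.6 FPKM in WT replicate 3 and 110.5 FPKM in cKO replicate 1. They were at 32.4 to 66.1 FPKM in the others. These comparisons were not planned. The part of either list in the ratio was not tested.

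**Figure D5:**
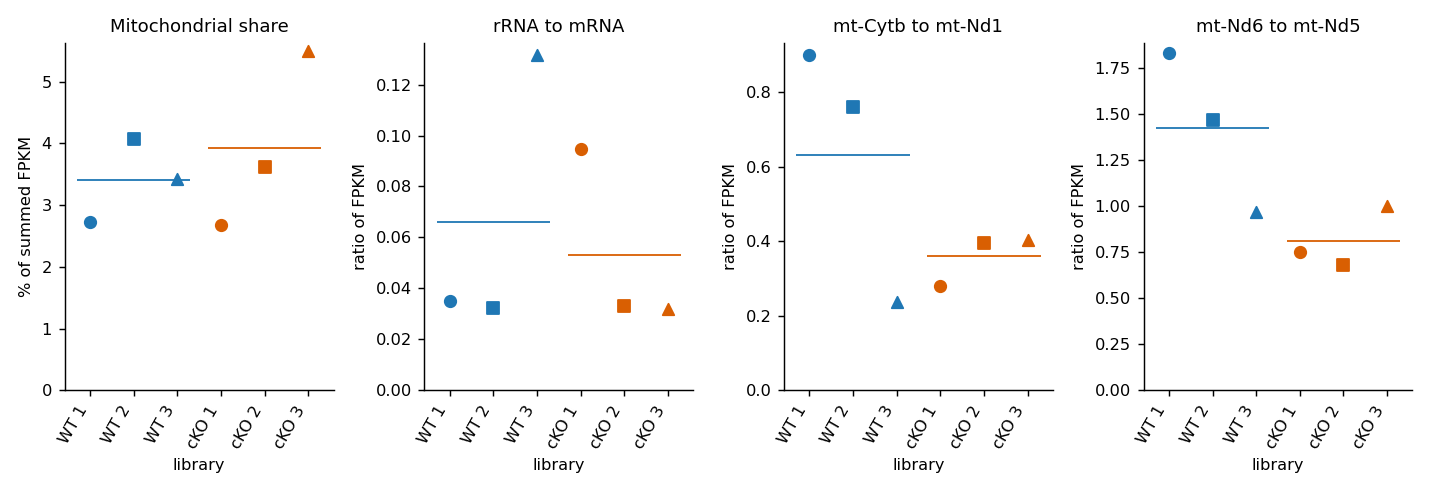
From left to right, share of the summed FPKM in mitochondrially encoded genes (y, %) and the FPKM ratios of rRNA to mRNA, of mt-Cytb to mt-Nd1 and of mt-Nd6 to mt-Nd5, for each library (x), with group means as lines. The ratio of mt-Cytb to mt-Nd1 is 0.899 and 0.759 in WT replicates 1 and 2 and at most 0.403 elsewhere, and that of rRNA to mRNA is highest in WT replicate 3 and cKO replicate 1.

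The nuclear genes that copy, transcribe, process and translate the mitochondrial genome showed no call. Of 71 listed genes 62 were tested, and 0 passed the threshold, with 0 also at an unadjusted p under 0.05. Means were higher in cKO libraries for 44 and lower for 18, with a median log2 difference of 0.08, the same as over all genes tested. The groups did not overlap in 5 of 62 (8.06%, beside 11.3% of all genes), all higher in cKO libraries. Among them were Gfm1, a mitochondrial translation elongation factor, at 13.6 ± 0.516 and 17.9 ± 1.57 FPKM (limma, adjusted p = 0.755), and Taco1, an activator of mt-Co1 translation, at 6.14 ± 0.974 and 8.43 ± 1.74 FPKM (adjusted p = 0.788). Gabpa, a subunit of nuclear respiratory factor GABP, had 8.94 ± 3.12 and 13.4 ± 4.64 FPKM (adjusted p = 0.817).

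Rexo2, an oligoribonuclease that degrades short RNAs in mitochondria, was at 57.1, 45.8 and 21.5 FPKM in WT and at 24.4, 25.8 and 26.3 FPKM in cKO libraries (limma, adjusted p = 0.796). Wild-type replicate 3 lay below all cKO libraries and the other WT libraries above them. Without that library the difference of Rexo2 was -0.98 on the log2 scale (SE 0.19, limma adjusted p = 0.0410). It was the 1 of 62 tested genes of this list then past the threshold. As the library left out was chosen from these same data, this p-value is descriptive only. Of all genes tested 3.89% then passed, 2.47% higher and 1.42% lower. Tfam, which packs mitochondrial DNA and starts its transcription, was at 6.22, 9.61 and 8.19 FPKM and at 6.46, 8.70 and 9.68 FPKM. The mitochondrial RNA polymerase gene Polrmt was at 9.63, 9.23 and 6.48 FPKM in WT and at 10.00, 8.29 and 8.16 FPKM in cKO libraries. Both were named for their role, outside the rule for named genes.

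Nuclear genes for subunits of the same respiratory complexes and of complex II had a median log2 difference of -0.13 over 83 tested genes, of which 51 had a lower and 32 a higher mean in cKO libraries. Of these 0 passed the threshold. At an unadjusted p under 0.05 there were 8, all lower in cKO libraries, or 9.64% beside the 2.94% of all genes that were lower and 6.81% in either direction. The groups did not overlap in 17, or 20.5% beside 11.3% of all genes. Of these, 15 were lower and 2 higher in cKO libraries, where 5.01% and 6.28% of all genes were. The complex I subunit gene Ndufb9 had 44.8 ± 8.26 and 24.3 ± 3.75 FPKM (limma, adjusted p = 0.545). Of complex V, Atp5j2 had 42.1 ± 10.1 and 22.2 ± 3.74 FPKM (adjusted p = 0.553) and Atp5h 90.8 ± 9.37 and 57.4 ± 3.85 FPKM (adjusted p = 0.575). Ndufb4c, named after Ndufb4, had 2.08 ± 0.704 and 0.727 ± 0.292 FPKM (adjusted p = 0.608). Whether the nuclear and mitochondrial lists differ from each other was not tested.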

How the data were processed

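RNA of 3 wild-type and 3 Arhgef15 cKO Sertoli cell cultures was sequenced. FastQC and HISAT2 2.1.0 with build mm8 are named per the submitters' processing notes. Not given in the sources used here: counter, annotation, strand setting and the handling of multiple matches. The deposited values were read as FPKM: multiplied by the GENCODE M21 exonic length they are multiples of the worth of 1 fragment, which gave 16790000 to 20320000 fragments per library. Of low values (at most 10 fragments, 1 exon), 99.1% to 99.5% were whole within 0.02 times their number. Coordinates and sequences are those of GRCm38 and GENCODE M21.

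Members, gene lists and tests were chosen with earlier results of these data known. Values were taken as log2(FPKM + 1), and genes reaching 1 FPKM in 3 or more libraries were fitted with genotype as the only term (limma 3.58.1 with trend, R 4.3.3, two-sided, Benjamini-Hochberg, threshold 0.05). A count model was not run on FPKM. The fit was also run on simulated data with independent noise for each gene. These lack variation that genes of a library share, so that run cannot vouch for the fit to the present data. Named genes were all members, up to 4 genes with the smallest p from each nuclear list and the most abundant nuclear copies. Of 37 mitochondrial genes in the reference, the 22 tRNA genes are not analysed here. Of 29275 identifiers 28932 had a symbol. Python 3.11.15 and Biopython 1.88 were used for tables, sequence windows and alignments.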

Additional observations from a re-analysis of the deposited data

How the results depend on the processing

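Settings varied were the filter, the pseudocount (0.1 or 5), the scaling (median-ratio, quantile, nuclear genes only), array weights, the adjusted p threshold (0.1), a replicate block, and leaving out each library. The count of members past the threshold was 0 in all of them, with the lowest adjusted p at 0.0793 (mt-Nd3 without WT replicate 3). At an unadjusted p under 0.05 it was 1 with nuclear-only scaling, 0 with array weights, and 0 to 3 with a library left out. Over all genes, 0 passed without the filter (1323 at an unadjusted p under 0.05, against 837), 0 with the replicate block, and 0 to 478 with a library left out (391 to 2736 at an unadjusted p under 0.05). The nuclear genes of mitochondrial gene expression had 0 to 1 call of 62 tested with a library left out. The 1 call was without WT replicate 3, where 3.89% of all genes passed.

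Same-numbered libraries deviated from their group means with correlations of 0.14, 0.03 and -0.21 over the genes tested. With 3 libraries per group these values cannot decide whether same-numbered libraries were handled together, and the labels do not say. With the replicate block 963 genes had an unadjusted p under 0.05, 2 of them members.

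The differences of 10 members changed sign. The difference of mt-Rnr1 was -0.11 with array weights, and with median-ratio scaling that of mt-Nd2 was -0.0065 and that of mt-Cytb -0.0587. With quantile normalization mt-Nd4 had 0.0801. With a library left out the ranges were -0.26 to 0.70 for mt-Rnr1, -0.72 to 0.30 for mt-Rnr2, -0.25 to 0.23 for mt-Nd2, -0.0472 to 0.42 for mt-Co1, -0.39 to 0.10 for mt-Co2, -0.92 to 0.11 for mt-Atp6, -0.10 to 1.44 for mt-Nd4l, -0.50 to 0.16 for mt-Nd4, -0.59 to 0.0124 for mt-Nd5 and -0.51 to 0.42 for mt-Cytb. The cause was not tested. The differences of mt-Nd1, mt-Nd3, mt-Nd6 and mt-Co3 kept their sign in all settings run. With a library left out, the difference in the summed share of the members ranged from -0.264 to 1.14 percentage points and that of the rRNA to mRNA ratio from -0.0338 to 0.0196. Depth limits mt-Atp8, at 1 to 9 fragments, more than any other member.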
